A study of Mus musculus with 12 samples.

Results

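The NALCN leak channel complex is the set of proteins that forms and carries the sodium leak channel of neurons, and the 4 genes described here, Nalcn, Unc80, Unc79 and Fam155a, encode its pore and its auxiliary subunits. They were chosen by symbol, with the pull-down and input values of these data already known, and all 4 were found by their current symbols among the 9112 genes of the Cre+ count table and the 14177 genes of the Cre- table. RNA was sequenced from mouse dorsal root ganglion (DRG) neurons that had been purified on 20% Percoll and kept for 24 h in culture. RiboTag mice carry a conditional allele in which Cre adds an HA epitope to the ribosomal protein Rpl22, so that an antibody to HA pulls down ribosomes, with the RNA bound to them, from cells that have expressed Cre.

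Both genotypes were homozygous for the tagged allele, Rpl22HA/HA, and were male mice of 3 to 6 months, with 5 mice pooled for each sample. Runx3-Cre+ animals carried Cre under the control of Runx3, a transcription factor of proprioceptive sensory neurons, in the heterozygous state, and Runx3-Cre- animals were their littermates without Cre, sequenced to measure the background of the pull-down. For each genotype there were 3 HA pull-downs and 3 inputs, the input being 10% of the lysate before precipitation. The number of fragments counted in genes was 8886308 to 11457315 in the Cre+ pull-downs, 9957913 to 13941113 in the Cre+ inputs, 14861795 to 18633365 in the Cre- pull-downs and 9403767 to 12181960 in the Cre- inputs. Nothing in the labels names separate cultures beyond the pooled mice, so errors and p-values measure the spread between these samples. The Cre+ libraries could be assigned to their group and not to single samples, so their numbers only tell them apart.

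Nalcn is a large pore-forming protein with the same 4-domain fold as the voltage-gated sodium and calcium channels, but it stays open near the resting potential and passes a steady inward sodium current. That current depolarizes the membrane and sets how readily a neuron fires. Unc80 and Unc79 are very large intracellular proteins that bind each other and the pore and are needed for a working channel at the membrane. Fam155a is a smaller membrane protein with a cysteine-rich extracellular part that sits on the pore and is needed for its surface expression.

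The driver gene and the marker genes were looked at first, because they bear on how the labels are read. In the libraries labelled Cre-, Runx3 stood at 20.8 to 51.4 normalized counts (CPM after TMM scaling within a genotype) in the pull-downs and at 1.90 to 4.70 in the inputs, a log2 fold change of 3.52 (SE 0.43, edgeR FDR 0.000236). In the libraries labelled Cre+ it stood at 22.8, 2.07 and 11.1 in the pull-downs and at 2.39 to 5.55 in the inputs, a log2 fold change of 1.55 (SE 0.87, edgeR FDR 0.309). The driver thus passed the test in the pull-downs labelled Cre-, where no tagged ribosomes would be present by genotype, and missed it in those labelled Cre+. The difference between these enrichments, Cre+ minus Cre-, was -1.94 (SE 0.996, edgeR FDR 0.302), and the pull-downs of both labels overlapped (log2 fold change -1.51, SE 0.83, edgeR FDR 0.339), so the enrichments were not shown to differ. The column names of all libraries taken here as Cre+, inputs as well as pull-downs, also resemble the titles of the Cre- samples. Those libraries were placed in the Cre+ group because the labels of the Cre+ samples name their table. The groups are called by their labels throughout. Of the markers of proprioceptors, 7 of 8 rose in the pull-downs labelled Cre-, where 6.01% of all genes tested did, and 1 of 7 in those labelled Cre+, where 4.72% did. Their summed level was higher in every pull-down than in every input under both labels, at 1463 to 1788 against 400.5 to 429 for Cre- (8 of 8 markers listed) and at 707 to 891 against 307 to 422 for Cre+ (7 of 8 listed), with median log2 fold changes of 2.68 and 1.299. Markers of other sensory neurons summed to 1595 to 2444 in the Cre- pull-downs against 3291 to 3554 in their inputs, with 5 of 14 fallen beside 5.83% of all genes, and overlapped for Cre+ (2856 to 3530 against 3261 to 3525). That sum held 14 markers for Cre- and 12 for Cre+. Summed over 12 general neuronal markers, the level was 33939 to 41596 in the Cre- pull-downs against 18304 to 21006 in their inputs, and 18132 to 19815 against 15632 to 18317 for Cre+, where the ranges overlap. Of these 12 markers, 3 rose and none fell in Cre- (median 0.33 on the log2 scale), and none rose and 2 fell in Cre+ (median 0.06), beside 2.19% of all genes that fell there. Summed markers of satellite glia and Schwann cells were lower in every pull-down than in every input of its genotype, at 1657 to 2044 against 3294 to 4669 for Cre- (12 of 12 markers listed) and 1871 to 2733 against 2922 to 4024 for Cre+ (8 of 12 listed). Singly, 3 of the 10 tested fell in Cre- (median log2 fold change -1.21), beside 5.83% of all genes. None of the 8 tested was called in Cre+ (median -0.45). Endothelial markers (4 of 5 listed) summed to more in every Cre+ pull-down than in any Cre+ input, 115 to 515 against 49.8 to 95.03, and overlapped for Cre-. Singly, 1 of these 4 was called higher in Cre+, beside 4.72% of all genes, and none in Cre-. Sums of fibroblast and macrophage markers overlapped in both genotypes. The part of these shifts in the values of the complex genes was not tested. A pull-down and its input came from the same lysate, and so from the same cells. Between such bulk samples, fewer cells of a type and less RNA per cell cannot be told apart.

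The 4 genes lie on 4 chromosomes and differ in size. In mouse build mm10 (GRCm38, RefSeq spans), Nalcn occupies chr14:123275678-123627330 on the minus strand, with a longest coding transcript of 7122 bases in 44 exons that encodes 1739 codons. Unc80 lies at chr1:66467915-66699150 on the plus strand, and its transcript of 13613 bases in 65 exons encodes 3326 codons. Unc79 lies at chr12:102947383-103184228 on the plus strand, with a transcript of 8874 bases in 49 exons and 2596 codons. Fam155a covers chr8:9206006-9773329 on the minus strand, the widest span of the 4, although its transcript holds only 3388 bases in 3 exons and 467 codons. Unc80 thus has a longer transcript than 99.1% of the genes tested in the Cre+ table, Unc79 than 94.8%, Nalcn than 88.6% and Fam155a than 46.0%. Exons of Nalcn and Unc80 overlap no other annotated gene, and 0.589% of the exon bases of Unc79 and 2.34% of those of Fam155a are shared with small RNA genes.

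In the inputs, which hold RNA of the whole culture, the 4 transcripts were present in the same order in both genotypes. Per kb of transcript, the mean level was 10.1 ± 0.818 (SD, n = 3) normalized counts for Fam155a, 9.71 ± 0.335 for Unc80, 4.99 ± 0.650 for Nalcn and 0.603 ± 0.159 for Unc79 in the Cre+ inputs. In the Cre- inputs the same quantity was 8.56 ± 1.35 for Fam155a, 8.30 ± 1.31 for Unc80, 4.30 ± 0.389 for Nalcn and 0.720 ± 0.234 for Unc79. Fam155a and Unc80 did not differ beyond their spread in either genotype, both lay above Nalcn in every input, and Unc79 was the lowest in every input. For each unit of Nalcn per kb, the inputs held 1.96 ± 0.188 units of Unc80 in Cre+ and 1.93 ± 0.288 in Cre-, and 2.04 ± 0.263 and 1.99 ± 0.293 units of Fam155a. Unc79 stood at 0.125 ± 0.0479 and 0.166 ± 0.0470 units.

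The inputs of both genotypes were compared because this contrast did not enter the choice of the genes, although it uses the same input libraries. The log2 fold change of Cre+ over Cre- input was 0.30 (SE 0.17) for Unc80, 0.29 (SE 0.22) for Nalcn, 0.31 (SE 0.23) for Fam155a and -0.17 (SE 0.44) for Unc79, each with an edgeR FDR of 0.998. None of the 4 passed the cutoffs of this study, an FDR under 0.1 with a change of 2-fold or more. Nor did any of the 9006 genes tested in this comparison (0.0%), of which 182 had an unadjusted p below 0.05, and DESeq2 called 1. On a common scale every Cre+ input lay above every Cre- input for Unc80, as for 3.82% of all genes, and the groups overlapped for the other 3 genes.

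**Figure D1:**
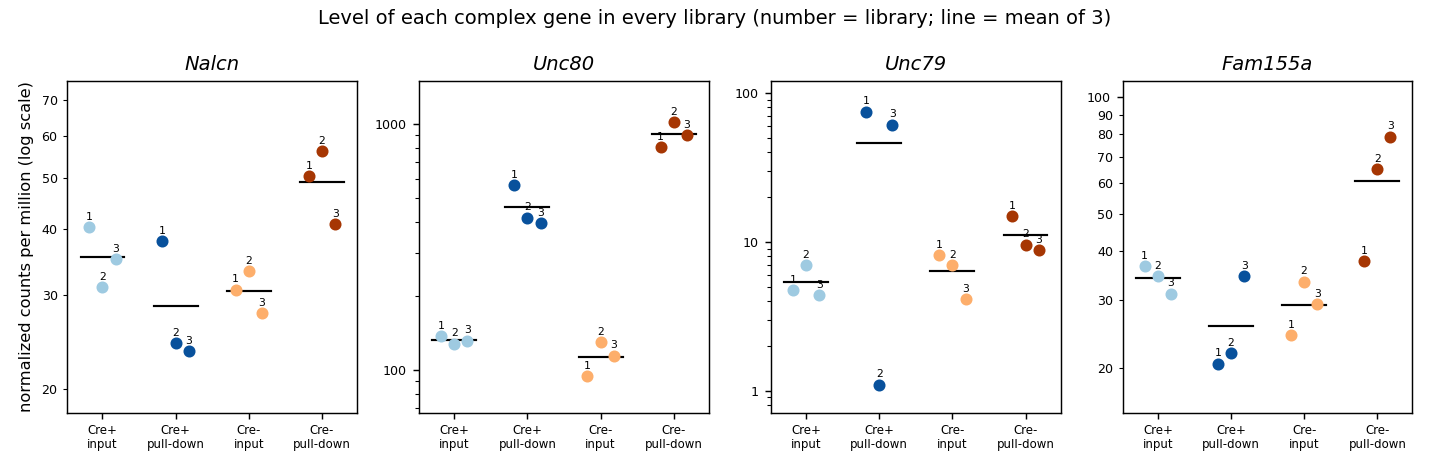
Normalized counts (CPM, log scale) of Nalcn, Unc80, Unc79 and Fam155a in each of the 12 libraries, by label and fraction, with 3 libraries (numbered points) and their mean (line) per group; the 2 genotypes were normalized separately. Unc80 pull-downs stand above the inputs in both genotypes, Unc79 splits in the Cre+ pull-downs with library 2 at 1.10, and Nalcn and Fam155a pull-downs stand above their inputs for Cre- alone.

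Pull-down against input is the contrast with which the genes were chosen, and their values in it are therefore given as a description, with no p-value. Where a member is said to pass the cutoffs used for all genes, this places its value among theirs and supports nothing. Nalcn, the pore, was at 38.0, 24.4 and 23.6 normalized counts in the Cre+ pull-downs and at 40.3, 31.1 and 35.1 in the Cre+ inputs. Pull-downs 2 and 3 were below all inputs and pull-down 1 was among them, so the groups overlapped, with a log2 fold change of -0.31 (SE 0.49). In the libraries labelled Cre-, Nalcn was at 50.3, 56.0 and 40.9 in the pull-downs and at 30.8, 33.4 and 27.8 in the inputs. Every Cre- pull-down lay above every input, with means of 49.1 ± 7.61 and 30.6 ± 2.77 and a log2 fold change of 0.68 (SE 0.22), or 1.60-fold.

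Unc80, the scaffold that links Unc79 to the pore, was at 565.0, 417 and 395 normalized counts in the Cre+ pull-downs, from 5089, 3421 and 3420 fragments. The Cre+ inputs held 137, 128 and 132. All 3 pull-downs were above all inputs, with means of 459 ± 92.5 and 132 ± 4.55 and a log2 fold change of 1.80 (SE 0.26), which is 3.47-fold and higher than that of 94.3% of the genes tested. The Cre- pull-downs reached 806, 1023 and 905 against 94.5, 130.1 and 114 in the inputs. Here too the groups were apart, with means of 911 ± 109 and 113 ± 17.9. The log2 fold change was 3.01 (SE 0.18), or 8.06-fold, and 26 of the 11526 genes tested had a higher value. Across libraries, the pull-downs were 2.99- to 4.27-fold over the mean input for Cre+ and 7.14- to 9.06-fold for Cre-, so the lowest Cre- library exceeded the highest Cre+ library.

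Unc79, which works together with Unc80, was the member with the lowest level in the inputs and in the Cre- pull-downs, and the most variable in the Cre+ pull-downs. Its Cre+ pull-downs gave 74.8, 1.10 and 61.3 normalized counts, from 674, 9 and 531 fragments, and its Cre+ inputs 4.71, 6.97 and 4.38, from 54, 108 and 71 fragments. Pull-downs 1 and 3 were 14.0- and 11.4-fold above the mean input, whereas pull-down 2 was 4.88-fold below it, so the groups overlapped around a log2 fold change of 3.09 (SE 1.13). Without pull-down 2 the fitted value was 3.68 (SE 0.53). With all libraries kept it was 3.17 (SE 0.98) in DESeq2 and 3.09 (SE 0.93) in a fit of all 12 libraries. Unc79 missed the FDR limit in the fit reported here and passed it in these 3 alternatives and in edgeR's exact test. The 9 fragments stood close to the lowest count in the Cre+ table, which lists only genes with at least 5 in every library.

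The spread of Unc79 over the Cre+ pull-downs, an SD of 3.37 on the log2 scale, was larger than that of 99.1% of the 1456 genes whose mean Cre+ input level was within 2-fold of its own, for which the median SD was 1.24. The Cre+ pull-downs correlated with each other less than the inputs did (Pearson r of log2 levels across genes 0.682 to 0.829 against 0.913 to 0.975), while the Cre- pull-downs reached 0.926 to 0.959. In 11 of 8947 genes, including Unc79, pull-down 2 was at most a sixteenth of each other Cre+ pull-down, and the same held for pull-down 1 in 108 genes and for pull-down 3 in 32. The other 3 complex genes were steady in these libraries, with SDs of 0.28 for Unc80, 0.38 for Nalcn and 0.41 for Fam155a against medians of 0.54, 0.86 and 0.88 for genes at a similar input level. In the libraries labelled Cre-, Unc79 was at 14.8, 9.55 and 8.78 in the pull-downs and at 8.13, 6.93 and 4.09 in the inputs. Those groups did not overlap, although the lowest pull-down and the highest input were close, and the log2 fold change was 0.80 (SE 0.40).

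Fam155a, the membrane subunit, was at 20.5, 21.8 and 34.5 normalized counts in the Cre+ pull-downs and at 36.6, 34.6 and 31.1 in the Cre+ inputs. Pull-downs 1 and 2 lay below all inputs and pull-down 3 among them, with a log2 fold change of -0.41 (SE 0.50). The Cre- pull-downs were at 37.8, 65.1 and 79.0 and the Cre- inputs at 24.3, 33.4 and 29.3. Each pull-down was above each input, pull-down 1 by the least, and the log2 fold change was 1.06 (SE 0.27), just over 2-fold.

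By the same cutoffs, 1 of the 4 genes (Unc80) was called higher in the Cre+ pull-downs, where 4.72% of the 8947 genes tested were, and 2 of the 4 (Unc80 and Fam155a) in the Cre- pull-downs, where 6.01% of 11526 were. Every pull-down was above every input for 1 of the 4 in Cre+ (15.5% of all genes) and for 4 of the 4 in Cre- (18.2%). Because this contrast served to choose the genes, nothing is read from these counts. Unc80 in Cre+ missed the FDR limit without Cre+ input 1 (log2 1.82) or without input 3 (log2 1.79), in fits where the calls over all genes also dropped, from 422 higher and 196 lower to between 4 and 59 higher and 0 and 15 lower without any single Cre+ input. Fam155a in Cre- dropped under 2-fold without Cre- input 1 (log2 0.95) or without pull-down 3 (log2 0.84) and with scaling by library size alone (log2 0.82), and missed the FDR limit in a fit of all 12 libraries (log2 1.04). Its 1.06 stood just inside the log2 limit of 1, with Nalcn at 0.68 and Unc79 at 0.80 outside it.

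Set side by side, Nalcn, Unc80 and Fam155a had the lower enrichment in the libraries labelled Cre+ and Unc79 the higher. The difference of the enrichments, Cre+ minus Cre- on the log2 scale in a joint fit, was -0.96 (SE 0.46) for Nalcn, -1.19 (SE 0.28) for Unc80, -1.44 (SE 0.51) for Fam155a and 2.32 (SE 1.24) for Unc79. Of the 4, Unc80 alone passed both cutoffs, in the lower direction, in a fit that placed 2.3% of the 9006 genes past them as higher and 2.0% as lower. These differences rest on the contrasts that served for the choice, and nothing is read from them. Between the pull-downs themselves, every Cre+ library lay below every Cre- library for Nalcn (log2 fold change -0.70, SE 0.45), Unc80 (-0.91, SE 0.23) and Fam155a (-1.16, SE 0.48), as for 15.0% of all genes. None of the 4 passed both cutoffs there, and 1.34% of all genes did as higher in Cre+ and 1.47% as lower. For Unc79 the pull-downs overlapped (2.13, SE 1.10), since Cre+ pull-down 2 was below all 3 Cre- pull-downs and the other two were above them.

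The unequal enrichment changed the proportions of the 4 transcripts. Per kb of transcript, Unc80 made up 38.3% ± 1.34 of the summed level of the 4 genes in the Cre+ inputs and 37.8% ± 1.76 in the Cre- inputs. In the pull-downs its share was 67.3% ± 8.36 for Cre+ and 72.2% ± 3.05 for Cre-, and no pull-down, at 58.7% or more, came near an input, at 39.8% or less. Nalcn went from 19.6% ± 1.75 to 7.94% ± 1.09 for Cre+ and from 19.8% ± 2.21 to 7.50% ± 1.49 for Cre-. Fam155a went from 39.6% ± 1.71 to 15.5% ± 5.38 and from 39.0% ± 1.72 to 18.9% ± 5.04. The ratio of Unc80 to Nalcn per kb was 8.50 ± 0.627 in the Cre+ pull-downs and 9.84 ± 1.60 in the Cre- pull-downs, from close to 2 in the inputs. As shares of a sum, these values fall for 1 gene when another rises.

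**Figure D2:**
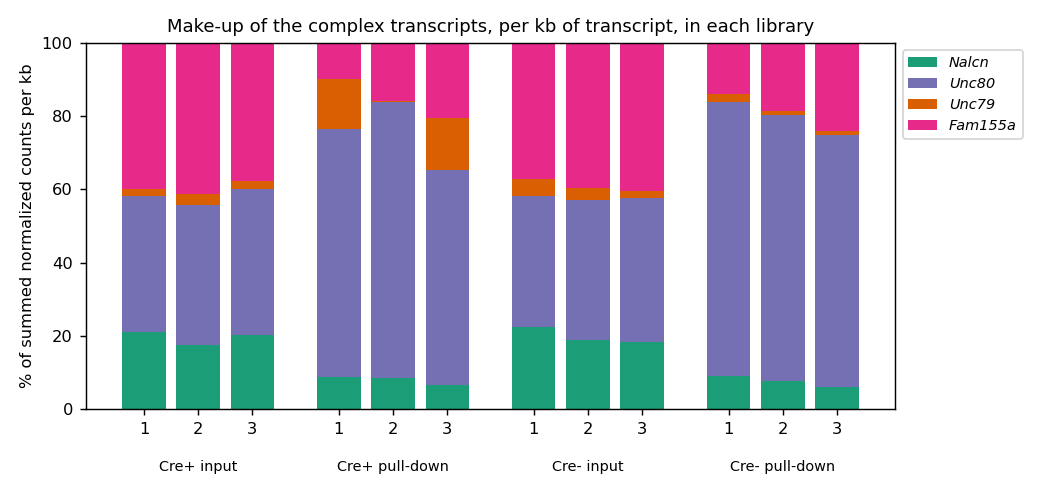
Share of each gene (percent, stacked to 100) in the summed normalized counts per kb of Nalcn, Unc80, Unc79 and Fam155a in every library, with 3 libraries per label and fraction. Unc80 takes 35.9% to 39.8% of each input and 58.7% to 75.4% of each pull-down, and Unc79 reaches 14.0% in the Cre+ pull-downs with library 2 at 0.304%.

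Transcript length moved with the enrichment over all genes, so each member was set beside genes of its own length. Across genes, which are not independent replicates, the log2 fold change of pull-down over input rose with the length of the longest coding transcript, with a Spearman correlation of 0.538 over 8906 genes for Cre+ and 0.358 over 11470 genes for Cre-. Of the 296 genes with transcripts of 10 kb or more in the Cre+ comparison, 45.6% were called higher, with a median log2 fold change of 1.48 and quartiles of 0.91 and 1.99. Unc80, at 1.80, lay inside those quartiles in Cre+, above 66.9% of its class. In the Cre- comparison the class of the same length had a median of 0.69 and quartiles of 0.27 and 1.11, and Unc80 at 3.01 was the highest of its 296 genes.

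Nalcn, in the class of 6 to 8 kb, was below the lower quartile of 0.26 in Cre+ and slightly above the upper quartile of 0.65 in Cre-. Fam155a, in the class of 3 to 4 kb, was within the quartiles in Cre+ (-0.51 and 0.61) and above the upper quartile of 0.36 in Cre-, where 94.4% of 2114 genes were lower. Unc79, in the class of 8 to 10 kb, exceeded 97.7% of 395 genes in Cre+ by its fitted value and lay within the quartiles in Cre-. Relative to the median of its length class, Unc80 differed by 0.31 in Cre+ and 2.32 in Cre-, Fam155a by -0.43 and 1.09, Nalcn by -1.05 and 0.38, and Unc79 by 2.03 and 0.35. The part of length in the values of the 4 genes was not tested.

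**Figure D3:**
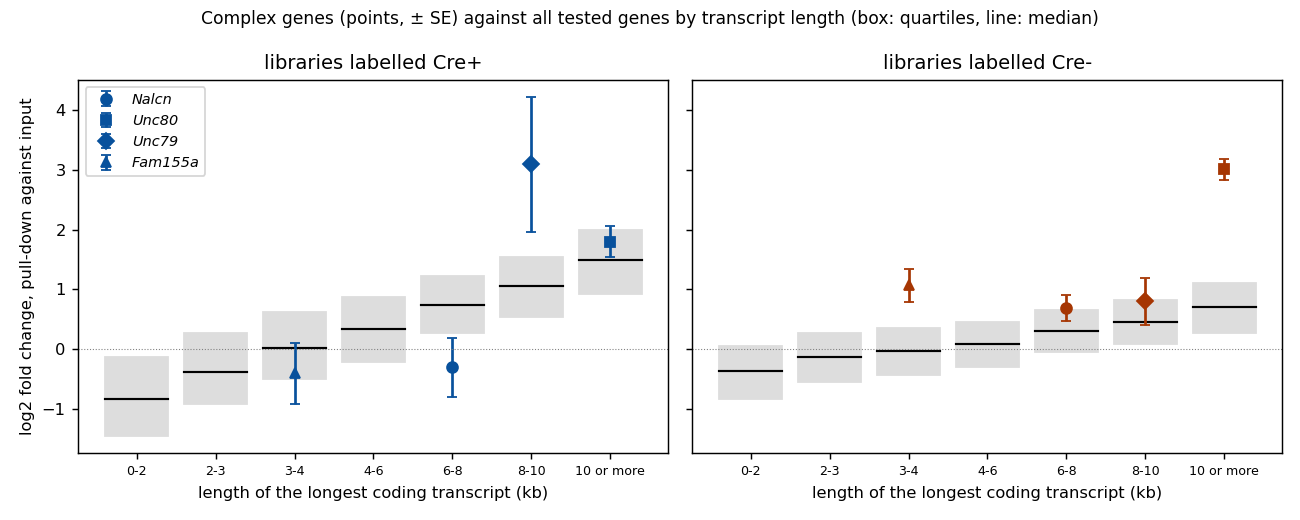
Log2 fold change of pull-down over input of the 4 complex genes (points ± SE, placed in their class of transcript length in kb) beside the quartiles (grey boxes) and median (line) of all genes tested in each class, for the libraries labelled Cre+ (left) and Cre- (right). Unc80 lies within the box of the longest class in Cre+ and far above it in Cre-, where Fam155a also stands above its box.

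The genes most like each member were taken by the Pearson correlation of log2 levels over the 12 libraries, a description in which all points share the same libraries and 4 groups. Unc80 was followed most closely by Cdh12 (r = 0.981), a cadherin, Dnm3 (0.968), a dynamin, and Iqsec1 (0.963), an exchange factor for ARF GTPases. For Nalcn they were Atp5a1 (0.967), the alpha subunit of mitochondrial ATP synthase, Sccpdh (0.874) and Pfkm (0.864), a phosphofructokinase. Fam155a came closest to Wasl (0.940), which drives actin branching and Trim32 (0.897), a ubiquitin ligase. Unc79 came closest to Rbm15 (0.953), an RNA-binding protein, Zc3h10 (0.948) and Fyco1 (0.946), an adaptor of autophagic vesicles. The 4 genes were not among each other's nearest: r was 0.479 between Unc80 and Nalcn, 0.464 between Unc80 and Fam155a, 0.530 between Nalcn and Fam155a, and 0.352, 0.137 and 0.00308 between Unc79 and Unc80, Nalcn and Fam155a.

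Genes known to act on or beside the channel were described from a list of 14 partners and regulators. It covers Fam155b, receptors that act on the leak current, G proteins, Src kinases, SNARE proteins and calmodulins. Over all genes tested, 4.72% rose and 2.19% fell in Cre+, and 6.01% rose and 5.83% fell in Cre-. Of 10 tested in Cre+, none rose and 1 fell, Calm2 (log2 fold change -1.72, SE 0.34, edgeR FDR 0.0422), a calmodulin gene, which stood at 978 ± 31.1 normalized counts in the pull-downs against 3233 ± 1647 in the inputs. That call was lost without Cre+ input 1 (log2 -1.22), input 3 or pull-down 3. Of 11 tested in Cre-, the SNARE gene Snap25 rose, from 6960 ± 1241 to 15663 ± 621 (log2 fold change 1.17, SE 0.15, edgeR FDR 0.000275). Its SNARE partners Vamp2 (log2 fold change -1.21, SE 0.14, edgeR FDR 0.000157) and Stx1a (-1.64, SE 0.40, edgeR FDR 0.0140) fell. Snap25 dropped under 2-fold with library size alone (log2 0.93), and Stx1a lost its call in a fit of all 12 libraries. The median log2 fold change of the list was -0.48 in Cre+ and -0.12 in Cre-, against 0.08 and -0.04 over all genes tested.

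Fam155b, the paralogue of Fam155a, is listed by its older symbol Tmem28, and only in the Cre- table. Its normalized counts were 6.64, 14.2 and 7.07 in the pull-downs and 6.86, 7.76 and 4.85 in the inputs, which overlap (log2 fold change 0.52, SE 0.42, edgeR FDR 0.436). Tacr1, the substance P receptor, Casr, the calcium-sensing receptor, and Chrm3, a muscarinic receptor, were listed for Cre- alone at a deposited mean FPKM below 1 and were not tested. Of these, Tacr1 held 0 fragments in 2 inputs and at most 14 in any library.

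The voltage-gated sodium and calcium channel alpha subunits share the fold of Nalcn and have long transcripts, from 5.90 to 14.9 kb with a median of 8.94 kb. In Cre+, 4 of 13 tested rose and none fell. Of all genes tested 4.72% rose, and by transcript length the share was 2.55% at 4 to 6 kb, 11.02% at 6 to 8 kb, 23.8% at 8 to 10 kb and 45.6% from 10 kb. The median log2 fold change of the list was 1.16, with all 13 above 0 under TMM and DESeq2 scaling and 11 of 13 under upper-quartile scaling or library size alone. Those called were Scn8a (log2 fold change 2.05, SE 0.38, edgeR FDR 0.0371), the sodium channel of nodes of Ranvier, Cacna1a (1.69, SE 0.35, edgeR FDR 0.0462) and Cacna1b (1.16, SE 0.33, edgeR FDR 0.0946), presynaptic calcium channels, and Scn9a (1.31, SE 0.29, edgeR FDR 0.0540), a sodium channel of nociceptors. Leaving out any single Cre+ input removed all 4 calls, with log2 fold changes that stayed between 1.04 and 2.10. Cacna1b was also lost without Cre+ pull-down 1 (0.98) or pull-down 2 (1.13) and under upper-quartile scaling or library size alone, and Scn9a without pull-down 3 (1.21) or with library size alone (0.85). In Cre- the median was -0.16, Scn8a (1.47, SE 0.15, edgeR FDR 7.41e-05) and Scn1a (1.39, SE 0.18, edgeR FDR 0.000319) rose, and the calcium channel Cacna1e fell (-1.44, SE 0.31, edgeR FDR 0.00801), a call lost in a fit of all 12 libraries. The shares of all genes tested that rose and fell in Cre- were 6.01% and 5.83%. By transcript length, the share that rose in Cre- was 6.77% at 4 to 6 kb and 10.9% at 6 to 8 kb. It was 14.1% at 8 to 10 kb and 31.4% from 10 kb. Scn8a was the only gene of this list called in both genotypes.

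The outward leak and the ion gradients were covered by 3 further lists. For comparison, 4.72% of all genes tested rose and 2.19% fell in Cre+, and 6.01% rose and 5.83% fell in Cre-. Two-pore potassium channels, which carry the potassium leak opposed to the sodium leak, had 5 genes tested in Cre+, with none called, and 7 in Cre-, where Kcnk1 rose (log2 fold change 1.57, SE 0.24, edgeR FDR 0.000872) and Kcnk13 fell (-1.10, SE 0.38, edgeR FDR 0.0656). Of the HCN channels, which open on hyperpolarization, and their subunit, none of 5 was called in Cre+, while in Cre- Hcn2 rose (1.17, SE 0.31, edgeR FDR 0.0234) and Hcn3 fell (-1.03, SE 0.25, edgeR FDR 0.0151). The calls of Kcnk13 (without Cre- input 2 or 3 or pull-down 2 or 3) and Hcn3 (without input 3 or pull-down 2 or 3) depended on single libraries. In a fit of all 12 libraries the 4 calls were lost, and that of Hcn2 was also lost with library size alone (log2 0.94).

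The sodium pump, which returns the leaked sodium, gave 1 gene of 6 called in Cre+, Atp1b3, a beta subunit (log2 fold change -1.29, SE 0.37, edgeR FDR 0.0963), a call lost without any single Cre+ input or without pull-down 2. In Cre-, 4 of 7 fell. Atp1b3 was among them (log2 fold change -1.20, SE 0.25, edgeR FDR 0.00666), with the small FXYD regulators Fxyd2 (-2.44, SE 0.41, edgeR FDR 0.00360), Fxyd6 (-2.25, SE 0.43, edgeR FDR 0.00596) and Fxyd7 (-1.03, SE 0.32, edgeR FDR 0.0415), of which Fxyd7 was no longer called without Cre- input 3 or pull-down 1 (log2 -0.71 without the latter). The pump transcripts tested in Cre- had a median length of 1.99 kb and a median log2 fold change of -1.03. For all genes under 2 kb in Cre- that median was -0.37. The part of length in the pump values was not tested. Over all 5 lists, 4 of 39 genes tested rose and 2 fell in Cre+, beside 4.72% and 2.19% of all genes, and 6 of 43 rose and 9 fell in Cre-, beside 6.01% and 5.83%.

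**Figure D4:**
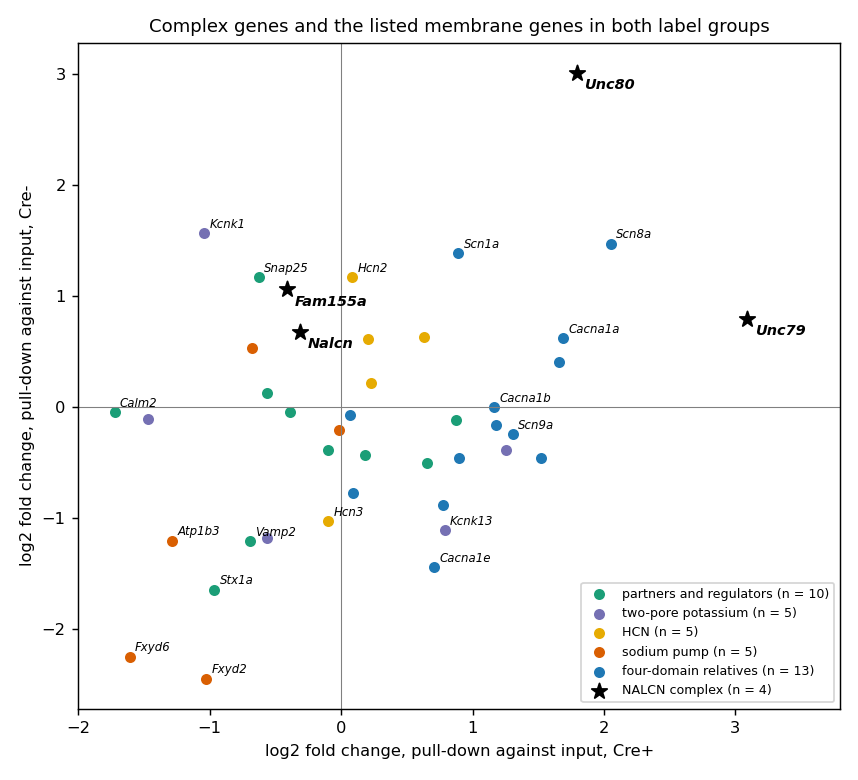
Log2 fold change of pull-down over input in the libraries labelled Cre+ (horizontal) and Cre- (vertical) for the 4 complex genes (stars) and 38 of the list genes tested in both genotypes (points, colored by list), with gene names on those called in either genotype. Unc80 stands at the top at 1.80 and 3.01, Unc79 at the far right at 3.09 and 0.80, and Nalcn and Fam155a lie left of 0 and above it; all 13 four-domain relatives lie right of 0 under this TMM scaling (11 of 13 under upper-quartile scaling or library size alone).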

How the data were processed

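RNA-seq was analysed for 3 HA pull-downs and 3 inputs of each genotype. The authors aligned reads to mm10 with STAR and counted fragments per refFlat gene with HTSeq, after CASAVA 1.8.2 per the labels, and deposited whole-number counts for each genotype with the mean FPKM over its libraries. Their fold changes, p-values and FDRs, and 18 other per-sample columns, were not used. The methods place all samples in 1 sequencing pool, and no batch is labelled.

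Genes with a deposited mean FPKM above 1 were tested on the counts with edgeR 4.0.16 in R 4.3.3 (TMM, quasi-likelihood, Benjamini-Hochberg over all genes). Genes were called at FDR below 0.1 and 2-fold. Comparisons between genotypes used the 9006 genes in both tables that passed the filter in either. Normalized counts are TMM-scaled CPM, given per kb of the longest coding GENCODE transcript where stated. The scripts were tested on simulated counts. Alternatives were DESeq2 1.42.0, edgeR's exact test, other scalings and filters, all libraries in 1 fit, a replicate block, and leaving out each library. Errors cover sampling and library spread, and amplified reads are not independent molecules.

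The members and lists were chosen with earlier results of these data known. Members and Fam155b were described in every library, with Runx3, the list genes called in a genotype (at most 4 per list and direction) and the 3 genes most correlated with each member. Some of these are not reported here.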

Additional observations from a re-analysis of the deposited data

Results flagged for a closer look

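Among the list genes, Atp1b1, Snap25, Calm2 and Scn9a differed between the genotypes by a test of the difference of the enrichments itself, Cre+ minus Cre-, in the joint fit of 12 libraries, in which 2.3% of the 9006 genes were called higher and 2.0% lower. The sodium pump subunit Atp1b1 had a difference of -1.19 (SE 0.22, edgeR FDR 0.0223) on the log2 scale. Snap25 gave -1.76 (SE 0.30, edgeR FDR 0.0158) and Calm2 -1.65 (SE 0.42, edgeR FDR 0.0701). Scn9a was the only one of these with the higher enrichment in Cre+, at 1.58 (SE 0.33, edgeR FDR 0.0365). The call of Snap25 held without any single library. That of Atp1b1 was lost without Cre- input 2, that of Scn9a without Cre- input 2, input 3 or pull-down 3, and that of Calm2 without Cre+ input 1 or any of Cre- inputs 2 and 3 and pull-downs 2 and 3.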

How the results depend on the processing

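Scaling by library size alone shifted the median log2 fold change of all genes from 0.08 to -0.36 in Cre+ and from -0.04 to -0.27 in Cre-, and upper-quartile scaling to -0.12 and -0.07. With library size alone Unc80 was at 1.34, Nalcn at -0.77 and Fam155a at -0.85 in Cre+, Unc80 at 2.77, Nalcn at 0.44 and Fam155a at 0.82 in Cre-, and the differences of Unc80 and Nalcn at -1.43 and -1.21; Unc80 in Cre+ was 1.58 with upper quartiles. Each complex gene kept its sign within a genotype under every alternative run. Over all lists, the calls higher in Cre+ (4) became 2 with library size alone, 7 with all libraries in 1 fit and 0 to 4 without 1 library, and those lower (2) became 6 and, without 1 library, 0 to 3. The calls lower in Cre- (9) became 4 with all libraries in 1 fit. Calls on the difference became 6 higher (from 1) with DESeq2, and 0 to 6 higher and 2 to 5 lower (from 4) without 1 library. Over all genes, calls higher and lower in Cre+ (422 and 196) became 1103 and 568 with DESeq2, 794 and 485 with the exact test, 192 and 699 with library size alone, and the difference (207 and 180) gave 614 and 428 with DESeq2.

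Same-numbered Cre- libraries correlated in their deviations at 0.0654, 0.0274 and 0.121, each best with its own number, which is a hint from the data; not every value passed 0.1, so the numbers were not taken as pairs. With a replicate block, Unc80 was at 3.02, Fam155a at 1.01, and calls higher and lower went from 693 and 672 to 704 and 792. No paired analysis was possible in Cre+ because its columns could be assigned only as groups. Unc79 had 9 to 674 fragments per library, and how far depth limited its value was not tested.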
